A study of Mus musculus with 3 samples.

Results

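The heart section of the group that received Shexiang Baoxin Pill (SBP) before ischemia-reperfusion (I/R) was compared with the section of the sham-operated group, to describe which transcripts were away from the sham level under drug plus injury and which were at that level. All spots with 200 or more detected genes entered, which were 1960 spots of the SBP section and 2234 of the sham section, of 6276 such spots in the 3 sections of the series. Transcripts were counted as unique molecular identifiers (UMIs), and the level of a gene is its UMIs in all kept spots per 1000000 UMIs of the section (CPM). Of the 32285 genes listed, the 10561 with 100 or more UMIs over both sections were used. The mice were C57BL/6, supplied at 8 weeks of age. Sham mice had vehicle by gavage for 7 days and then an operation in which the needle was passed and nothing was tied. SBP mice had MUSKARDIA, the name the labels give to SBP, by gavage for 7 days, then ligation of the left anterior descending coronary artery for 30 min and reperfusion for 24 h. I/R mice had vehicle for 7 days and the same ligation and reperfusion, and the values of their section stand beside those of the named genes. No group had SBP without I/R, and each condition is 1 section of a cut piece of heart, whose mouse is not given in the sources used here. The drug, the injury, the mouse, the hour of collection and the plane of the section can therefore not be told apart. Every interval below is at the 95% level and covers counting error only, and no p-value is given.

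When blood returns to a ligated territory, dying cardiomyocytes, the muscle cells of the heart, release signals that draw neutrophils first and monocytes after them, and fibroblasts begin to lay down a provisional matrix. Surviving cardiomyocytes turn on fetal genes, among them those of the natriuretic peptides and of the slow myosin chain, and lower genes of fatty acid use and of repolarizing currents. In a Visium section each barcoded spot captures RNA from a small area that can hold several cells, and fewer cells of a type and less RNA per cell cannot be told apart.

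The kept spots held 25118258 UMIs in sham and 21631280 UMIs in SBP. A spot had a median of 10645 UMIs in sham and 10653 UMIs in SBP. The mitochondrial genome gave 48.6% of UMIs in sham and 46.3% in SBP. Of the barcodes, which are fixed places on the slide, 1563 occurred in both sections. The labelled tissue showed in the markers: 6 cardiomyocyte genes summed to 26526 CPM in sham and 23143 CPM in SBP. The atrial genes Myl7 and Sln were almost absent, with 3 UMIs each in sham and with 4 and 0 UMIs in SBP. Markers of T cells (11 and 19 UMIs over 3 genes in sham and SBP), B cells (16 and 13 over 3 genes), mesothelium (0 and 12 over 2 genes) and adipocytes (1 and 11 over 2 genes) were near 0 in both sections.

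Most transcripts lay close to sham. The median log2 ratio of SBP over sham was 0.08 over the 10561 genes, with the 5th percentile at -0.38 and the 95th at 0.55. A gene was called higher or lower when its ratio was 2-fold or more, and at the sham level when its whole interval lay within 0.32 of 0 on the log2 scale. By these rules 108 genes were higher (1.02% of those used), 42 were lower (0.398%) and 2987 were at the sham level (28.3%), and the other 7424 were neither. The genes at the sham level held 82.1% of the UMIs of the sham section. They include 12 of the 13 mitochondrial genes, and the mitochondrial genome gave 48.6% of the sham UMIs. With TMM factors Ccl2, Ccl9, Manf, Npr3, Ciart, Hspa1a and Hspa1b, named below, were under 2-fold, and at equal depth per spot Ccl4, Ccl9, Il1b, Manf, Npr3, Ciart, Hspa1b and Cilp were. The called genes were mostly of low level: the 108 higher genes held 0.148% of the sham UMIs and 0.433% of the SBP UMIs, and the 42 lower genes 0.0731% and 0.0257%. A gene near the minimum of 100 UMIs enters more easily when it is high in 1 section, and 28 of the higher genes had fewer than 50 UMIs in sham while 20 of the lower genes had fewer than 50 in SBP. Among the 3351 genes with 1000 or more UMIs over both sections, 20 were higher, 5 were lower and 2043 (61.0%) were at the sham level.

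**Figure D1:**
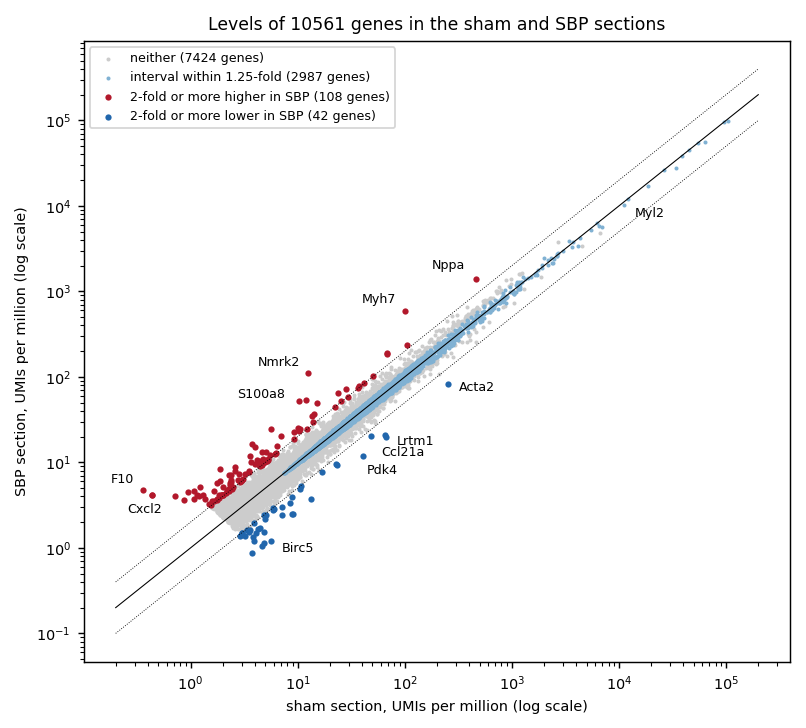
Each point is 1 of the 10561 genes, with its CPM in the sham section on the x axis and in the SBP section on the y axis, both on log scales; the solid line is equality and the dotted lines mark 2-fold. The points hug the equality line, the 108 genes 2-fold or more higher (red) and the 42 lower (dark blue) are mostly at the low end, and Nmrk2, Myh7 and Nppa stand out above and Acta2 below it.

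The 2 highest ratios among genes at 50 CPM or more were those of Nmrk2 and Myh7, both of cardiomyocytes. Nmrk2, a kinase that makes nicotinamide mononucleotide from nicotinamide riboside, had 12.5 CPM in sham (313 UMIs), 111 CPM in SBP (2393 UMIs) and 53.1 CPM in I/R. Its log2 ratio of SBP over sham was 3.15 (interval 2.98 to 3.32), or 8.88-fold. It is encoded on chromosome 10 (GRCm38, 81198170 to 81202051, minus strand). Myh7, the slow myosin heavy chain of the fetal heart, had 100.1 CPM in sham, 596 CPM in SBP and 302 CPM in I/R, a log2 ratio over sham of 2.57 (2.51 to 2.64). Both genes were therefore at a higher level in the SBP section than in the I/R section, by 1.06 (0.97 to 1.15) for Nmrk2 and 0.98 (0.94 to 1.02) for Myh7 on the log2 scale. Mhrt, a long RNA from the opposite strand of the Myh7 locus, had 13.9 CPM in sham and 11.6 CPM in SBP, a log2 ratio of -0.26 (-0.50 to -0.02). Myh6, the fast adult myosin heavy chain, went from 6917 CPM in sham to 5698 CPM in SBP and was at the sham level by the rule, at -0.28 (-0.29 to -0.27), but at -0.34 to -0.35 and outside the band when UMIs without mitochondrial genes, TMM factors or median-of-ratios size factors set the scale.

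Natriuretic peptide genes differed from each other. Nppa, the atrial peptide, had 458 CPM in sham, 1380.2 CPM in SBP and 1146 CPM in I/R, which is 3.01-fold of sham under SBP. Nppb, the B-type peptide, had 124 CPM in sham, 198 CPM in SBP and 505 CPM in I/R. Its log2 ratio of SBP over sham was 0.68 (0.61 to 0.74), under the 2-fold line. Npr3, the clearance receptor of these peptides and a gene of the endocardium, had 5.29 CPM in sham, 10.8 CPM in SBP and 3.64 CPM in I/R, a log2 ratio over sham of 1.03 (0.72 to 1.35) on 133 and 234 UMIs. Its relatives Npr1 and Npr2, the signalling receptors, had ratios of 0.36 (0.09 to 0.63) and -0.02 (-0.31 to 0.27). Of the 20 genes listed for cardiomyocyte stress, 19 were used and 4 were higher (Nmrk2, Myh7, Nppa and the LIM protein gene Fhl1 at 1.16), beside 1.02% of all genes. None was lower and 4 were at the sham level, beside 28.3% of all genes. The median of the list was 0.58, beside 0.08 over all genes. Ankrd1, a titin-binding stretch response protein, was at 879 CPM in sham and 1367 CPM in SBP, a log2 ratio of 0.64 (0.61 to 0.66). Acta1, the skeletal actin of the fetal programme, went the other way at -0.38 (-0.43 to -0.34).

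**Figure D2:**
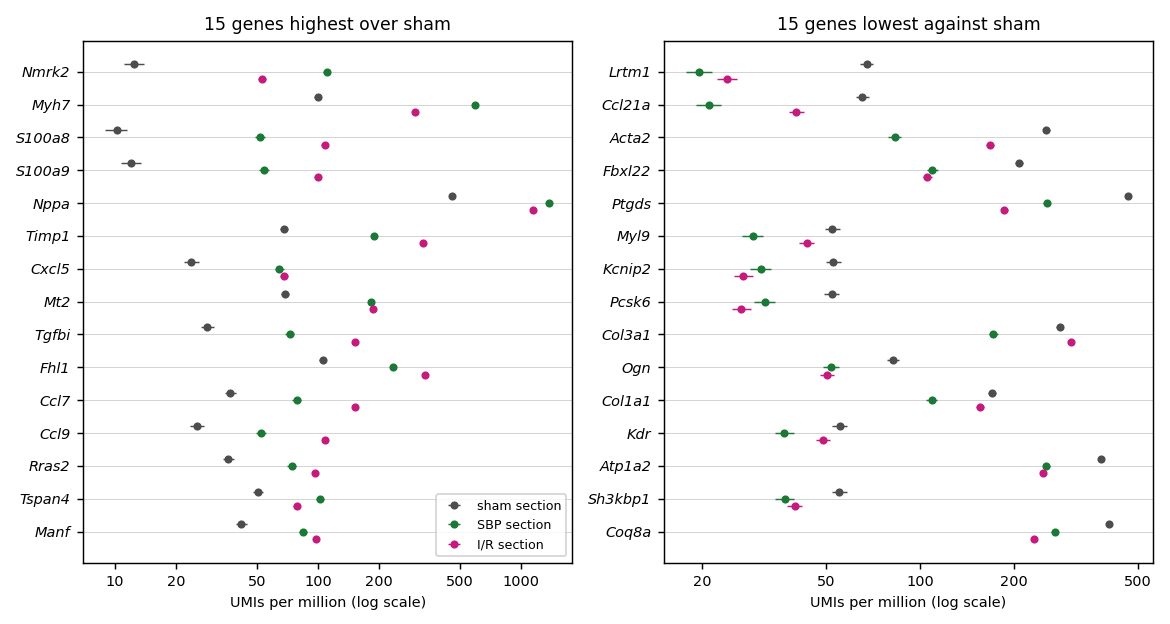
CPM (log scale) in the sham (grey), SBP (green) and I/R (pink) sections for the 15 genes with the highest (left) and the 15 with the lowest (right) ratio of SBP over sham among genes at 50 CPM or more; bars are exact Poisson 95% intervals of 1 section each. SBP lies between sham and I/R for S100a8, Timp1 and Fhl1, and beyond I/R for Nmrk2, Myh7, Nppa and Acta2.

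The 9 neutrophil genes used had the highest median of the 54 lists. S100a8 and S100a9, the calprotectin subunits of neutrophils, had 10.2 and 12.02 CPM in sham, 51.8 and 54.3 CPM in SBP, and 108 and 99.8 CPM in I/R. Their log2 ratios of SBP over sham were 2.34 (2.15 to 2.55) and 2.18 (1.99 to 2.36). Of 18 listed neutrophil genes only 9 reached 100 UMIs, and 7 of these 9 were higher, beside 1.02% of all genes. They were S100a8, S100a9, the protease inhibitor gene Slpi at 2.51, the decoy receptor gene Il1r2 at 1.83, Clec4d at 1.62, Il1b at 1.37 and the gelatinase gene Mmp9 at 1.21. The median of the 9 was 1.62. It leaves out the listed genes under the minimum, which a gene low in sham passes through its SBP UMIs. Retnlg, a neutrophil marker left out in this way, had 13 UMIs in sham and 15 in SBP (0.52 and 0.69 CPM). Csf3r, the receptor for the growth factor of neutrophils, had 113 UMIs in sham and 183 in SBP, a log2 ratio of 0.91 (0.56 to 1.26).

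Genes of recruited monocytes and of chemokines were also above sham, while those of resident macrophages were not. Among 18 monocyte and infiltrating macrophage genes 6 were higher and none lower, beside 1.02% and 0.398% of all genes, and their median was 0.87. Chil3, a chitinase-like protein, had 5.65 CPM in sham, 24.9 CPM in SBP and 49.0 CPM in I/R. Arg1, the arginase of wound macrophages, had 3.74, 16.4 and 47.5 CPM in that order, a log2 ratio of SBP over sham of 2.13 (1.80 to 2.47). The monocyte surface gene Ly6c2 was at 2.08, and Ccr2, the receptor that brings monocytes into tissue, at 0.49 (0.26 to 0.73). Of 17 chemokine genes used, 7 were higher, beside 1.02% of all genes. They were Cxcl2 at 3.26, Cxcl1 at 1.48, Cxcl5 at 1.44, Ccl4 at 1.28, Ccl7 at 1.09, Ccl9 at 1.04 and Ccl2, from 29.3 CPM in sham to 58.6 CPM in SBP. The ratio of Cxcl2 rests on 11 UMIs in sham and 91 in SBP, of which 17 lay in 1 spot, and it was 1.79 at equal depth per spot, where Ccl4 was at 0.18, Ccl9 at 0.80 and Il1b at 0.73, all under 2-fold. Among 17 resident macrophage genes none was higher or lower, beside 1.02% and 0.398% of all genes. In this list 8 were at the sham level, beside 28.3% of all genes, and the median was -0.13. Of these, the complement gene C1qa had 117 CPM in sham and 110.2 CPM in SBP, and Mrc1, the mannose receptor, was at -0.43 (-0.58 to -0.29). The class II antigen presentation genes H2-Aa, H2-Ab1, H2-Eb1 and Cd74 were all at the sham level, between -0.14 and -0.03, while their I/R over sham ratios were between 0.65 and 0.79. H2-Aa left the sham level when UMIs without mitochondrial genes, TMM factors or median-of-ratios size factors set the scale.

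Acute phase genes were partly above sham. Mt2, a metal-binding metallothionein, had 68.7 CPM in sham, 184 CPM in SBP and 187 CPM in I/R. Saa3, a local serum amyloid, had 91 UMIs in sham and 254 in SBP, a log2 ratio of 1.70 (1.35 to 2.06), beside 1.13 for I/R over sham. Hp, haptoglobin, was at 1.76 (1.35 to 2.19). These were the 3 higher genes of 18 used in the acute phase and IL-6 family list, beside 1.02% of all genes. The median of the list was 0.49. The haemoglobin gene Hbb-bs was at 0.48 (0.46 to 0.51), and its part in the ratios of blood cell genes was not tested.

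Matrix genes split in both directions. Timp1, an inhibitor of matrix proteases, had 68.2 CPM in sham, 188 CPM in SBP and 329 CPM in I/R, a log2 ratio of SBP over sham of 1.46 (1.38 to 1.55). Tgfbi, a matrix protein induced by TGF-beta, was at 1.35 (1.22 to 1.48), Tnc, tenascin, at 1.29 (1.01 to 1.57) and Thbs4, a thrombospondin, at 1.70 (1.19 to 2.23). In the same list of activated fibroblast matrix, with 20 genes used and a median of 0.47, 2 genes were lower, beside 0.398% of all genes. They were Acta2, smooth muscle actin, and Cilp at -1.08 (-1.53 to -0.64). The fibrillar collagens were below sham without reaching 2-fold. Col3a1 had 280 CPM in sham, 172 CPM in SBP and 304 CPM in I/R, and Col1a1 had 171, 109 and 156 CPM. Of 14 collagen chains 3 were at the sham level, beside 28.3% of all genes. None was called higher or lower, beside 1.02% and 0.398% of all genes. Their median was -0.23, with 9 intervals below 0 and 4 above 0. Postn, periostin of activated fibroblasts, was at -0.22 (-0.38 to -0.05) in SBP over sham, with 27.9 CPM in sham, 23.99 CPM in SBP and 66.3 CPM in I/R. The basement membrane chain gene Col4a1 was at the sham level, at 0.19 (0.13 to 0.25).

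Acta2 was among the 3 lower genes at 50 CPM or more, with Lrtm1 and Ccl21a. It had 254 CPM in sham (6375 UMIs), 83.0 CPM in SBP (1795 UMIs) and 168 CPM in I/R, a log2 ratio of SBP over sham of -1.61 (-1.69 to -1.54), or 3.06-fold lower. Other genes of the contractile apparatus of vascular smooth muscle were below sham too, with Myl9 at -0.85 (-0.99 to -0.71), Myh11 at -0.76 (-0.97 to -0.56) and Tagln at -0.64 (-0.81 to -0.48). Actg2, the enteric smooth muscle actin, is outside the list and the naming rules and was lower at -2.11 on only 95 and 19 UMIs. The median of the 15 smooth muscle genes was -0.34, with Acta2 the 1 gene called lower. The list was not lower throughout: 10 intervals lay below 0 and 2 above 0, and the highest ratio was 0.58. In it 4 genes were at the sham level, beside 28.3% of all genes. Summed, the 15 genes had 8982 CPM in sham and 8766 CPM in SBP. Most of this sum came from other genes of the list than Myh11, Acta2 and Tagln. These had 312 CPM together in sham and 119 CPM in SBP. Of 12 pericyte genes none was called, beside 1.02% higher and 0.398% lower of all genes, and 5 were at the sham level, beside 28.3%. The median of the 12 was -0.03, beside 0.08 over all genes.

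The chaperones of the endoplasmic reticulum (ER), which fold secreted proteins and are raised together by the unfolded protein response, were all at or above sham. Hspa5, the master chaperone BiP, had 277 CPM in sham, 519 CPM in SBP and 456 CPM in I/R, a log2 ratio of SBP over sham of 0.91 (0.86 to 0.95). The ER protein genes Creld2 at 1.32 (1.09 to 1.55), Sdf2l1 at 1.32 (1.10 to 1.54) and Manf at 1.01 (0.90 to 1.12) were the 3 higher genes of 19, beside 1.02% of all genes. None was lower and 2 were at the sham level, beside 28.3% of all genes. The median of the 19 was 0.61, and 18 of the 19 intervals lay above 0. The amino acid response list next to it (ATF4 targets) had 16 genes used and a median of 0.35. None of them was called, beside 1.02% higher and 0.398% lower of all genes. The promoters of 7 of the 17 ER chaperone genes with a RefSeq entry held the ER stress element, written here as CCAAT followed after 9 bases by CCACG and searched on both strands from 250 bases before to 50 after the start. Over all 27025 genes of the RefSeq table (GRCm38.p6) the share was 0.137%. This motif was chosen after the values were seen, and a match is a description of the letters only. The 250 bases before the start in the 3 windows with most matches, ties ordered by the ratio of the gene, are shown because the list is defined by this kind of control; capitals mark the outer blocks of the element on either strand.
Hsp90b1, chr10:86705445-86705694, minus strand: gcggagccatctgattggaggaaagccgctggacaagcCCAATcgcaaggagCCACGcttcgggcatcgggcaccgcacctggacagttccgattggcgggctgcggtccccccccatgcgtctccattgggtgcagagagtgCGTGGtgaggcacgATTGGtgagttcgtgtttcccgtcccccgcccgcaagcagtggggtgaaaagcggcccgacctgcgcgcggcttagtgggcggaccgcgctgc
Creld2, chr15:88819396-88819645, plus strand: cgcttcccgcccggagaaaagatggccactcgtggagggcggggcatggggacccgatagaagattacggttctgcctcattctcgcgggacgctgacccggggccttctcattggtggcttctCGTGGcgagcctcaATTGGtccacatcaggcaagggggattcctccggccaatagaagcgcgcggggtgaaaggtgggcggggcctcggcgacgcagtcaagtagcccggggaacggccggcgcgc
Hspa5, chr2:34771840-34772089, plus strand: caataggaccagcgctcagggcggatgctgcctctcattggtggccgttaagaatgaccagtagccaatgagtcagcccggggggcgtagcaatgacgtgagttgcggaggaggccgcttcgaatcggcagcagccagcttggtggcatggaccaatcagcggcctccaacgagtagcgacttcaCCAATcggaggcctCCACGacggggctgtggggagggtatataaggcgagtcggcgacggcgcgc
The nearest match ended 46 bases before the start in Hspa5 and 107 bases before it in Creld2, and Hsp90b1 held 2 matches.

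The heat shock list, which holds mitochondrial chaperones and an ER chaperone beside those of the cytosol, had a lower median than the ER list. Of 20 genes 2 were higher, beside 1.02% of all genes. They were the near-identical pair Hspa1a at 1.02 (0.59 to 1.46) and Hspa1b at 1.06 (0.64 to 1.48), whose reads may be split between the copies. In this list 9 genes were at the sham level, beside 28.3% of all genes, and the median was 0.19. Hspb7, a small chaperone of heart muscle, was at 0.80 (0.76 to 0.84) and Hsph1 at -0.54 (-0.68 to -0.40). The heat shock element GAANNTTC was in the promoters of 10 of the 15 listed genes with an entry, and in those of 9.04% of all genes. The list was made of known heat shock genes, so this excess follows from the list and is no result.

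The output genes of the circadian clock were above sham. Dbp, a transcription factor with a strong daily rhythm, had 74.2 CPM in sham, 131 CPM in SBP and 52.1 CPM in I/R, a log2 ratio of SBP over sham of 0.82 (0.73 to 0.90). Per2 was at 0.96 (0.61 to 1.31), Per1 at 0.86 (0.68 to 1.05), Hlf at 0.84 (0.59 to 1.09) and Ciart, a repressor of the clock, at 1.07 (0.66 to 1.49). All 10 genes of this arm had intervals above 0 and a median of 0.76, and the median of the same genes was -0.45 for I/R over sham. Of the 10, 1 was called higher, beside 1.02% of all genes, and 1 was at the sham level, beside 28.3%. Arntl, the activator whose own rhythm runs opposite to these genes, was under the minimum, with 76 UMIs in sham, 15 in SBP and 120 in I/R. It belongs to a second clock list, of 8 genes repressed by Rev-erb, of which 4 were used. None of these 4 was called, their median was -0.10, their highest ratio was 0.23 and 1 interval lay below 0. The hour at which each heart was taken is not given in the sources used here, and its part in these values was not tested. The E-box CACGTG, to which the clock activator binds, was in the promoters of 4 of 9 genes of this arm with an entry, and in those of 8.09% of all genes. The arm was listed for such control, so a share above that of all genes follows from the list and is no result. Tef, at 0.40, held 1 match in each of its 2 windows. The 3 windows with most matches, ties ordered by the ratio of the gene, are shown with the E-box in capitals.
Ciart, chr3:95882229-95882478, minus strand: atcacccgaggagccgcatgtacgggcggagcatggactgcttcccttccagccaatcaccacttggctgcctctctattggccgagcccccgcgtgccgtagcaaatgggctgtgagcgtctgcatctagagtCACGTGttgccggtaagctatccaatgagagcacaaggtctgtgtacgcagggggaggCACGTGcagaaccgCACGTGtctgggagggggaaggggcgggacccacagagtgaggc
Per1, chr11:69098699-69098948, plus strand: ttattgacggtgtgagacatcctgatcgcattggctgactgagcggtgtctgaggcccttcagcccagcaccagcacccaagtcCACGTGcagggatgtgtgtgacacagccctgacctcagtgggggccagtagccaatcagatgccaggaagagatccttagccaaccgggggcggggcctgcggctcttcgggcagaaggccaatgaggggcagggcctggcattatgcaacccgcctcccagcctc
Bhlhe41, chr6:145865421-145865670, minus strand: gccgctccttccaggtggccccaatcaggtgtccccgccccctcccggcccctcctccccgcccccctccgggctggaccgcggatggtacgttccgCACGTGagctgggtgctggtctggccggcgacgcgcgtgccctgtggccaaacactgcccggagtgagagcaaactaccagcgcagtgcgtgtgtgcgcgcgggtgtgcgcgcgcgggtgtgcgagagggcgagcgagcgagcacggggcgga
Ciart, with the highest ratio of the arm, held 3 E-boxes, the nearest ending 38 bases before the start. Dbp and Nr1d1 held none in this window.

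Cytosolic ribosomal proteins were slightly above sham throughout. Of 35 genes none was called higher or lower, beside 1.02% and 0.398% of all genes, and 3 were at the sham level, beside 28.3%. All 35 intervals lay above 0 and the median was 0.40, beside 0.78 for I/R over sham. Rpl3, a core protein of the large subunit, had 246 CPM in sham and 453 CPM in SBP, a log2 ratio of 0.88 (0.83 to 0.93), the highest of the list, and Rplp1 was at 0.40 (0.37 to 0.42). The median of the list was 0.32 to 0.34 when UMIs without mitochondrial genes, TMM factors or median-of-ratios size factors set the scale. Gm42418, a locus that overlaps ribosomal RNA, was at 0.49 (0.48 to 0.51) in SBP over sham and at -0.83 in I/R over sham.

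Among genes of cardiac metabolism and ion channels, Pdk4, Ucp3 and Scn4b were lower. Pdk4, the kinase that shuts pyruvate out of mitochondria and is a target of PPAR receptors, had 41.1 CPM in sham, 12.02 CPM in SBP and 21.5 CPM in I/R, a log2 ratio of SBP over sham of -1.77 (-1.98 to -1.58). Ucp3, a mitochondrial carrier also under PPAR control, was at -1.83 (-2.29 to -1.40). Pdk4 and Ucp3 were the 2 lower genes of the 15 PPAR targets used, beside 0.398% of all genes, and the other 13 were not called. The median of the 15 was -0.22, with 9 intervals below 0 and 5 above 0, and the highest ratio was 0.92. Scn4b, a sodium channel subunit, was at -1.56 (-2.03 to -1.11), Kcnd2, a channel of the transient outward current, at -0.90 (-1.25 to -0.55) and Kcnip2, its partner, at -0.77 (-0.91 to -0.64). These 3 had the lowest ratios of 18 ion channel and gap junction genes, whose median was -0.12, while Gja1, the main ventricular connexin, was at the sham level at -0.01 (-0.07 to 0.05). Lrtm1, a leucine-rich repeat membrane protein gene, had 67.4 CPM in sham, 19.6 CPM in SBP and 24.1 CPM in I/R, the lowest ratio of genes at 50 CPM or more, at -1.78. Ccl21a, the lymphatic chemokine, had 65.3, 21.03 and 40.1 CPM, a log2 ratio of -1.63 (-1.79 to -1.48), and near-identical copies of it exist in the genome. Fbxl22, an F-box protein of the sarcomere, had 208, 109.5 and 106 CPM, and Ptgds, prostaglandin D synthase, 466, 255 and 186 CPM.

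Several proliferation genes were lower in SBP than in sham and higher in I/R. Birc5, survivin, had 142 UMIs in sham and 26 in SBP (5.65 and 1.20 CPM) and 9.82 CPM in I/R, a log2 ratio of SBP over sham of -2.23 (-2.90 to -1.62). Mki67, the Ki-67 antigen, had 121 and 33 UMIs, a ratio of -1.66 (-2.26 to -1.09), beside 1.26 for I/R over sham. Cdk1, the mitotic kinase, was at -1.70 (-2.38 to -1.06) and Rrm2, a ribonucleotide reductase subunit, at -1.04 (-1.69 to -0.42). These 4 were the lower genes of the 18 cell cycle genes used, beside 0.398% of all genes, and none was higher. Birc5 and Mki67 reached the minimum of 100 UMIs by their sham UMIs alone. The median of the 18 was -0.11, the highest ratio was 0.92 and 3 intervals lay above 0. Summed, the 18 genes had 401 CPM in sham, 403 CPM in SBP and 691 CPM in I/R. Birc5 gave only 5.65 CPM of the sham sum, and Mki67 had fewer UMIs than Birc5. The sums rest on more abundant genes of the list and say little of these genes. The replication helicase genes Mcm2, Mcm3, Mcm5 and Mcm6 were between 0.24 and 0.33 in SBP over sham, each with an interval that includes 0, and between 1.29 and 1.71 in I/R over sham. Top2a, Ccnb1, Ccnb2 and Ccna2 had fewer than 100 UMIs over sham and SBP.

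Vessel genes differed by list. Of 22 endothelial genes none was called, beside 1.02% higher and 0.398% lower of all genes, 9 were at the sham level, beside 28.3%, and the median was 0.10. Kdr, the main VEGF receptor, was at -0.59 (-0.72 to -0.46), from 55.2 CPM in sham to 36.7 CPM in SBP. Among 10 genes of the endocardium and veins used of 16, Plvap, a diaphragm protein of fenestrated vessels, was at 1.20 (0.98 to 1.42) and Npr3 at 1.03. Vwf, von Willebrand factor, had 37.1 CPM in sham, 52.7 CPM in SBP and 29.0 CPM in I/R. The median of these 10 genes was 0.52 for SBP over sham and 0.09 for I/R over sham. The minimum of 100 UMIs counted sham and SBP but not I/R. A gene high in SBP alone therefore passed it more easily than a gene high in I/R alone. For this reason the gap between these medians is no measure of SBP against I/R for the whole list.

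**Figure D3:**
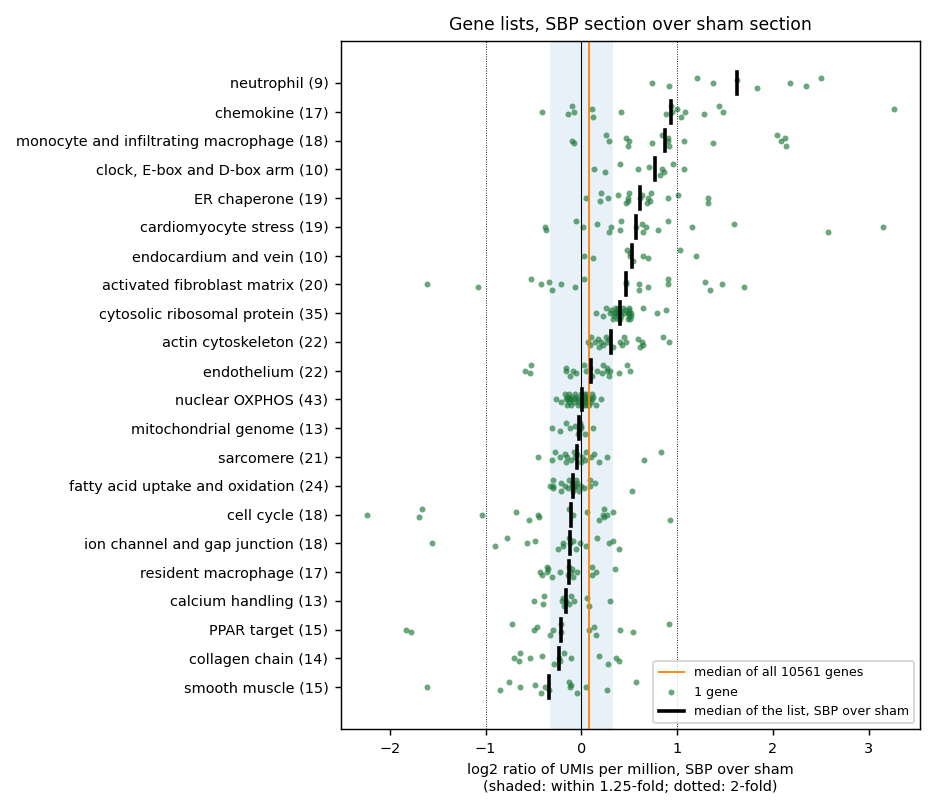
Log2 ratio of SBP over sham for each used gene (points) of 22 gene lists, ordered by their medians (black bars), with the number of genes in parentheses; the shaded band marks the sham level rule and the dotted lines mark 2-fold. Neutrophil genes have the highest median (1.62) and smooth muscle genes the lowest (-0.34), and the 43 nuclear OXPHOS genes all lie within the band on this scale, though not under the 3 other scalings.

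Most listed genes of the sarcomere and of respiration were at the sham level, with exceptions in the sarcomere. Myl2, the ventricular light chain, had 12116 CPM in sham and 12055 CPM in SBP, a log2 ratio of -0.01 (-0.01 to 0.00), beside 8417 CPM in I/R. Mb, myoglobin, had 11052 and 10372 CPM, and Tnni3, cardiac troponin I, 6464 and 5831 CPM. The other 7 of the 10 highest genes at the sham level outside the mitochondrial genome were Myh6, Myl3, Tpm1, Slc25a4, Fabp3, Cox6a2 and Tnnc1, of which Myh6 and Fabp3 were outside the band under all 3 other scalings. All 43 nuclear genes of oxidative phosphorylation (OXPHOS) were at the sham level, beside 28.3% of all genes and 61.0% of those with 1000 or more UMIs. Their ratios were between -0.26 and 0.20 with a median of 0.01, which became -0.07 with median-of-ratios size factors. With UMIs without mitochondrial genes 41 of the 43 were at the sham level, and with TMM or median-of-ratios factors 40 were. In the mitochondrial genome 12 of 13 genes were at the sham level, beside the same shares. The other, mt-Nd6, had an interval of -0.43 to -0.02. Mitochondrial genes gave 48.6% of the sham and 46.3% of the SBP UMIs that set the scale, which pulls their ratios towards 0. With UMIs without mitochondrial genes as the scale, 11 of the 13 were at the sham level. In the sarcomere list 16 of 21 genes were at the sham level, beside 28.3% of all genes and 61.0% of those with 1000 or more UMIs, and 13 of 21 were under each of the 3 other scalings. The 5 others were Myom2 at 0.83, Synpo2l at 0.65, Actc1 at -0.45, Mybpc3 at -0.30 and Myl4, an atrial chain with few UMIs, at 0.27. For fatty acid uptake and oxidation 18 of 24 genes were at the sham level (15 with TMM factors), and for calcium handling 9 of 13 (7 with TMM factors). Beside these stand 28.3% of all genes and 61.0% of those with 1000 or more UMIs. A gene with more UMIs has a narrower interval and is called at the sham level more easily. The counts of the sarcomere, fatty acid and calcium lists are therefore no result about these lists. Atp2a2, the calcium pump of the sarcoplasmic reticulum, was just outside the band, from 4496 CPM in sham to 3441 CPM in SBP, a log2 ratio of -0.39 (-0.40 to -0.37), as were Casq2 at -0.40 and Hrc at -0.50.

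Some genes at the sham level in SBP were far from it in I/R. Among the genes at the sham level with 50 CPM or more in any section, the 10 with the highest ratio of I/R over sham were Litaf, Pf4, Tmsb4x, Tubb5, Actg1, Tmsb10, Wfdc17, Ctsc, Ost4 and Plin2. They include actin regulators and genes of macrophages. Tmsb4x, thymosin beta 4, which binds free actin, had 627 CPM in sham, 756 CPM in SBP and 1382 CPM in I/R. Litaf, a lysosomal regulator of inflammatory cytokines, had 26.0, 28.5 and 58.6 CPM. The 10 with the lowest ratio were Lars2, Bc1, Malat1, Ogdhl, Dhrs7c, Gm5532, Selenbp1, Dgat2, Got1 and Trdn. Of these, all but Lars2 and Malat1 left the band under each of the 3 other scalings. Malat1, a nuclear long RNA, had 519 CPM in sham, 530.4 CPM in SBP and 282 CPM in I/R. Trdn, triadin of the calcium release complex, was at -0.20 (-0.26 to -0.14) in SBP over sham, with an interval that left the band under the 3 other scalings, and at -0.66 in I/R over sham. These 20 genes were picked for their I/R value, so their distance from sham in I/R is the rule and not a result, and the median of all 10561 genes was 0.23 for I/R over sham.

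**Figure D4:**
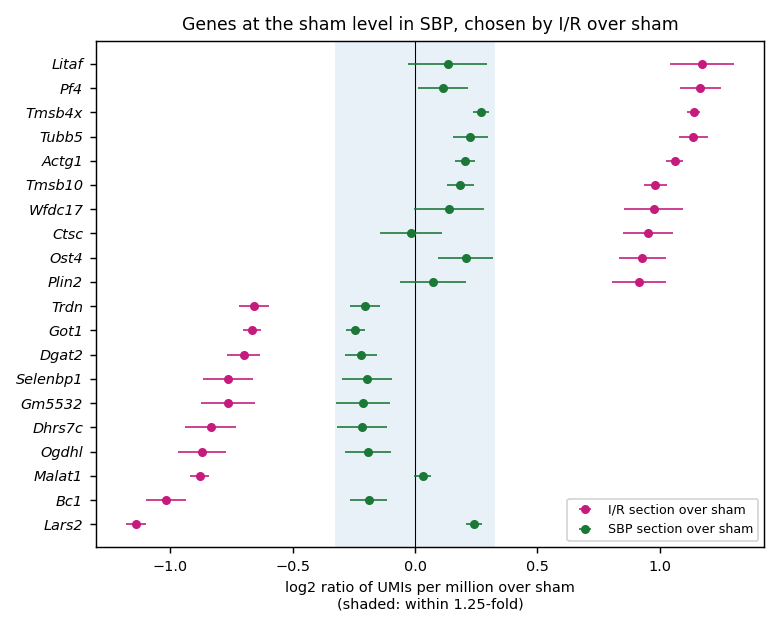
Log2 ratio over sham of the SBP (green) and the I/R (pink) section for 20 genes at the sham level in SBP, chosen for the highest and lowest I/R over sham; bars are exact 95% counting intervals and the shaded band marks the sham level rule. All green intervals lie in the band by the rule, and the I/R values run from -1.14 (Lars2) to 1.17 (Litaf).

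Genes away from sham, called or not, differed in the share of spots in which they were found. To compare spots at equal depth, 6500 UMIs were drawn from every spot, which kept 2102 sham and 1747 SBP spots and left out 132 and 213 shallower ones. Myh7 was found in 38.4% of sham spots and 91.4% of SBP spots, and its median per spot was 0 and 3 UMIs. Nmrk2 went from 6.33% to 44.0% of spots, and Hspa5 from 78.4% to 95.2%. Without thinning the shares of Nmrk2 were 11.5% and 56.6%. The 10% of SBP spots with most Myh7 held 31.0% of its UMIs, and with the top 10% of spots left out of each section its log2 ratio was 3.08. The neutrophil gene S100a8, at a lower level than Myh7, was in 3.76% of sham and 11.5% of SBP spots. In the SBP section 94.6% of its UMIs lay in 10% of the spots. Such a share is high for any gene found in so few spots, so it is no measure of confinement. Timp1 was between these, in 20.5% and 42.5% of spots, with 54.8% of its SBP UMIs in the top 10%. Acta2 went from 66.3% to 25.4% of spots, while its share in the top 10% went from 42.3% to 68.6%. That share rises when a gene is found in fewer spots, so its rise is no separate result. The most Acta2 in any single unthinned spot was 91 UMIs in sham and 112 UMIs in SBP. The log2 ratio of Acta2 was -2.58 without the top 10% of spots of each section. Leaving out these spots takes a larger share of the UMIs in the section where a gene is found in fewer spots. The ratios of Acta2 and Myh7 without them therefore follow from the shares, and they show no stronger change away from those spots. Over the SBP spots Spearman's rho was 0.54 between S100a8 and S100a9, 0.38 between Nmrk2 and Nppa, 0.48 between Nppa and Nppb, 0.14 between Myh7 and Nmrk2 and 0.01 between Myh7 and Timp1. These correlations are descriptions over 1747 spots of 1 section that share a library.

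**Figure D5:**
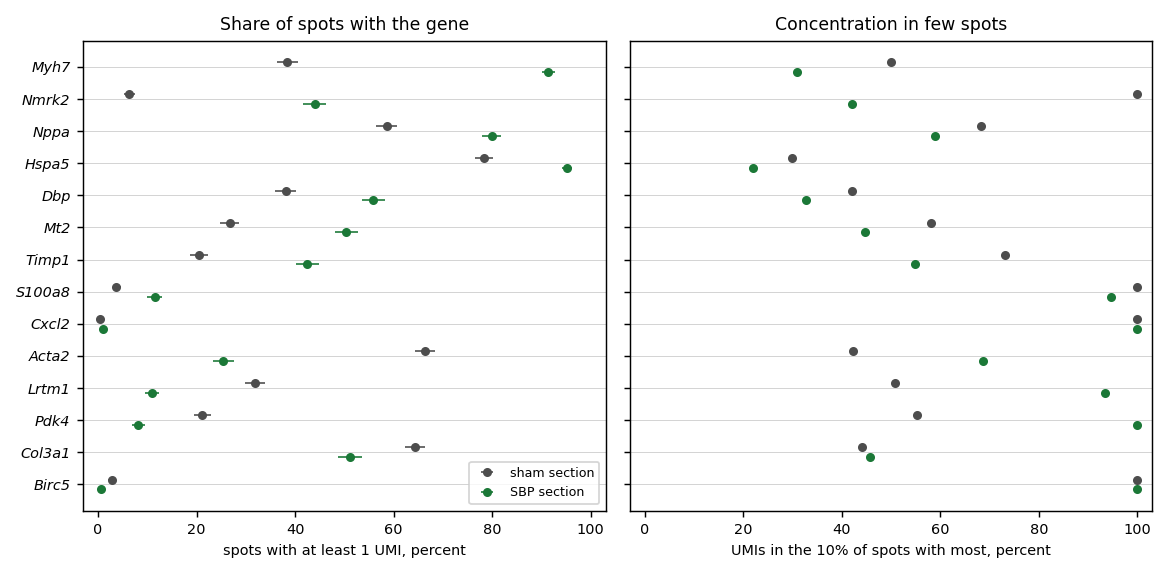
For 14 genes after thinning to 6500 UMIs per spot, the left panel gives the percent of spots with at least 1 UMI (bars: exact binomial 95% intervals) and the right panel the percent of the gene's UMIs in the 10% of spots with most, in the sham (grey) and SBP (green) sections. Myh7 and Hspa5 reach over 90% of SBP spots, S100a8 and Cxcl2 stay in few spots, and Acta2 drops from 66.3% to 25.4% of spots.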

How the data were processed

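Visium libraries of heart sections were used, 1 for each of the sham, SBP and I/R conditions. The authors deposited raw counts of UMIs per gene and spot over tissue, made with Space Ranger 1.3.0 on mm10 per the labels. The study's methods name another version and a human reference, while the 32285 gene identifiers are of mouse, and 32158 were found in GENCODE M21 (GRCm38), which gave the gene positions. Reads that fit near-identical genes may be split or lost in such counts.

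Spots needed 200 detected genes, which removed a few (3 in sham, 2 in SBP and 1 in I/R). UMIs were summed per section over the kept spots, and ratios were taken of CPM, with exact conditional binomial intervals. Levels had exact Poisson and shares of spots exact Clopper-Pearson intervals. With 1 section per condition no test was made, and the ratios were tested on simulated data. Total UMIs were 25118258, 21631280 and 30238530 for sham, SBP and I/R. Promoters came from RefSeq (GRCm38.p6).

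Genes were named by rule: the 15 highest and 15 lowest ratios at 50 CPM or more in the higher section, the 10 highest-level genes at the sham level, the 10 highest and 10 lowest of I/R over sham among genes at the sham level, members of 54 gene lists, and genes the study maps on its sections. The comparison, the rule and the lists were chosen with earlier results of these data known. The ER stress motif, Mhrt, Arntl and the genes of the closing observations were added after their values were seen. Actg2 was named outside these rules too. Alternatives were other scalings (UMIs without mitochondrial genes, TMM, median of ratios), equal weight per spot, other filters on spots and genes, thinned spots, other folds and spots left out. Python 3.11.15 (numpy 2.4.6, scipy 1.17.1, pandas 2.3.3, matplotlib 3.10.9) and R 4.3.3 with edgeR 4.0.16, for TMM factors only, were used. Spot positions were not used.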

Additional observations from a re-analysis of the deposited data

How the results depend on the processing

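The 108 genes higher in SBP became 182 with equal weight for each spot, 174 with genes of 50 or more UMIs, 66 with 200 or more, 1817 with 1 or more, 444 at a fold of 1.5 and 44 when the interval bound had to pass 2-fold. The 42 lower genes became 86, 20, 1811, 194 and 17 under the last 5 of these. The 2987 genes at the sham level became 7477 with the interval within 1.5-fold, 8015 by the point estimate alone, and 1807 in thinned spots, which hold fewer UMIs and give wider intervals. The other settings run (median-of-ratios or TMM scaling, UMIs without mitochondrial genes, all spots, spots with 1000 or more UMIs) kept the 3 counts within 1.5 times, between 77 and 108 higher, 42 and 49 lower, and 2987 and 3198 at the sham level. Equal weight left 42 lower and 2638 at the sham level, and thinned spots 106 higher and 50 lower. The causes of the moves were not tested where no count of UMIs is named. The 3 scalings moved the median ratio by -0.06 to -0.07, and 9 to 11 of the 58 named genes called then fell under 2-fold, beside 12 in thinned spots, 3 with equal weight and 3 of 48 without the 1% of spots with most UMIs of the gene. No named gene that was called changed direction under any setting in which its ratio could be taken. Without the 10% of spots with most UMIs of the gene, a ratio could be taken for only 13 of the 58. The 3 scalings and the filters on spots shift ratios far too little to reverse a called gene. Those settings could therefore not have shown a change of direction. Ratios of genes under about 100 UMIs are limited by depth, as is a change in few spots. No paired analysis was possible because there are no replicate sections to pair.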

Other observations

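Some further genes above sham in SBP are given here as values, chosen after those values were seen. H19, an imprinted long RNA of fetal tissue, had 257 UMIs in sham and 509 in SBP (10.2, 23.5 and 6.51 CPM in sham, SBP and I/R). Cyp26b1, which degrades retinoic acid, had 124 and 225 UMIs (4.94, 10.4 and 3.27 CPM), and Pnmt, the enzyme that makes adrenaline, had 30 and 88 UMIs (1.19, 4.07 and 1.16 CPM). H2-Q6 and H2-Q7, class I genes whose copies are alike enough for counts to be uncertain, had 2.31 and 4.66 CPM in sham, 7.03 and 13.2 CPM in SBP, and 4.30 and 8.04 CPM in I/R. Prg4, lubricin, had 383 and 1072 UMIs, a ratio of 1.70, beside 1.74 in I/R.

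F10, coagulation factor X, had the highest ratio of all used genes at 3.72 on 9 UMIs in sham and 102 in SBP, and it was higher in I/R too, at 4.75. Which cells it came from was not tested. Transcripts typical of other organs were found at low level. Albumin (Alb) had 11, 89 and 446 UMIs in sham, SBP and I/R, Ttr had 27, 81 and 119 UMIs, and the airway gene Scgb3a1 had 27, 101 and 78 UMIs. Of the Alb UMIs, 13 of those in SBP and 317 of those in I/R lay in 1 spot each. The source of these transcripts was not tested.

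A pair of secreted proteins is given for low ratios, also chosen after the values were seen. Sfrp2 had 229 UMIs in sham and 54 in SBP, a log2 ratio of -1.87, and Spon2 had 336 and 80 UMIs, a ratio of -1.85, beside 0.07 in I/R over sham.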
